A study of Homo sapiens with 4 samples.

Results

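Antisense long noncoding RNAs are transcribed from the strand opposite a known gene and carry that gene's symbol followed by -AS and a number. Of 1233 genes with such a symbol in the table, 152 reached 1 FPKM (fragments per kilobase of gene length, scaled to library size) or more in at least 2 of 4 libraries, and these are described here, each beside the gene whose symbol it carries, called its host gene. The members were thus selected on their FPKM values. Of the other 1081 symbols, 779 were listed at 0 in every library and 302 were above 0 somewhere but under the threshold. The study by its title concerns YTHDF3, m6A-marked transcripts and brain metastasis of breast cancer, and its only comparison sets RNA recovered with an antibody against YTHDF3 (RNA immunoprecipitation, RIP) beside the starting RNA (input). There were 2 input and 2 YTHDF3 RIP libraries, all from untreated, genetically unmodified cells as far as the labels state, grown in DMEM. The sample labels give the cell line as MDA-MB-231, a triple-negative human breast cancer line, whereas the growth protocol gives MDA-MB-231Br, a derivative that grows in brain, so the results concern 1 line or the other. The RIP antibody came from Santa Cruz, but the extraction protocol also mentions embryos and an m6A antibody, neither of which matches these samples. No control RIP with an unspecific antibody was analysed here, so binding to YTHDF3 and recovery by other routes cannot be told apart. Nothing in the labels tells whether the paired libraries were made from separate cultures, and the p-values therefore measure spread between libraries that may be only technical.

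N6-methyladenosine (m6A) is a methyl mark that a nuclear methyltransferase complex places on adenosines of mRNAs and long noncoding RNAs, most often in a short GGAC-like context. YTHDF3 is one of the cytoplasmic reader proteins whose YTH domain binds this mark, and it is known for roles in translation and decay of marked RNAs. Antisense RNAs lie in several arrangements relative to their hosts: some run through the exons of the host on the other strand, some lie in its introns, and some start beside its promoter and run away from it. Individual antisense RNAs have been described as nuclear regulators of their neighbours, as cytoplasmic RNAs that bind microRNAs or proteins, and as hosts of small nucleolar RNAs (snoRNAs).

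The members were not all of one annotated kind. GENCODE release 29 classed 95 of the 152 as antisense RNA, 26 as lincRNA, 25 as processed transcript and 1 (JHDM1D-AS1) as a bidirectional promoter RNA, while 2 were pseudogene transcripts of the unprocessed type (SVIL-AS1 and EMC3-AS1), 1 of the unitary type (PSMD5-AS1), and 2 were protein-coding genes despite their names (NCBP2-AS2 and MMP24-AS1). The label thus holds as a naming convention, with these 5 exceptions in kind. In the inputs, markers of the MDA-MB-231 line were present: VIM (vimentin) was at 727 and 1322 FPKM, CD44 at 358.5 and 489, AXL at 578 and 370.8, EGFR at 146.5 and 75.3 and KRT18 at 74.0 and 97.2. Luminal markers were absent or low, with ESR1 and CDH1 at 0 in both inputs and PGR, GATA3 and EPCAM at no more than 12.0 FPKM. YTHDF3 mRNA itself stood at 10.3 and 13.8 FPKM in the inputs and at 75.8 and 72.4 in RIP. Read depth is not stated; if the commonest low value is taken as 1 read, relative depth came to about 6140000 and 7310000 reads in the inputs, 10400000 in RIP 1 and 3110000 in RIP 2. RIP 2 was thus the shallowest library, and it listed 19 members at 0, against 4, 5 and 3 in input 1, input 2 and RIP 1.

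The sequences below show the motif GGACT, the most common form of the m6A context written in DNA letters, in 6 of the antisense RNAs that the results turn on. Each was picked for the most copies among stretches of that length inside a single exon and outside the exons of the host, so copies elsewhere were not considered. Each is a stretch of 61 bases of genomic sequence along the transcript strand of the longest GENCODE 29 transcript (GRCh38), with GGACT in capitals. AFAP1-AS1, PAXIP1-AS2 and FOXD2-AS1 were higher in RIP, NR2F1-AS1 and PRMT5-AS1 were lower, and OIP5-AS1 did not pass the test. FOXD2-AS1 reached the threshold in RIP only and PRMT5-AS1 in the inputs only, so these calls support nothing. The stretches lie at chr4:7772511-7772571 (plus strand), chr7:154951111-154951171 (plus), chr1:47433563-47433623 (minus), chr5:93569912-93569972 (minus), chr14:22920071-22920131 (plus) and chr15:41299292-41299352 (plus), in the order shown.
AFAP1-AS1: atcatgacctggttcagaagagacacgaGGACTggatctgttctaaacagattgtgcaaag
PAXIP1-AS2: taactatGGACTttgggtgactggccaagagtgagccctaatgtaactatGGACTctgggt
FOXD2-AS1: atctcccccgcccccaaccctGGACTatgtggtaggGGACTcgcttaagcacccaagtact
NR2F1-AS1: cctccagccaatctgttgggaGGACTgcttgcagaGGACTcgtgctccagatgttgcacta
PRMT5-AS1: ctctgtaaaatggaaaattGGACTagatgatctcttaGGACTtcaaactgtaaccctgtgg
OIP5-AS1: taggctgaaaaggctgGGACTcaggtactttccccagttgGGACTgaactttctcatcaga
The whole transcripts held 9 copies in AFAP1-AS1, 10 in PAXIP1-AS2, 6 in FOXD2-AS1, 5 each in NR2F1-AS1 and PRMT5-AS1, and 7 in OIP5-AS1. The 6 were chosen as holding the motif, and the shares of all members that hold it are given further on. The stretches of NR2F1-AS1 and PRMT5-AS1, both lower in RIP, held 2 copies each.

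Antisense RNAs that passed the test were mostly higher in YTHDF3 RIP than in input, whereas among all genes tested the lower calls were the more numerous. In the test across all 12848 genes at the same threshold (limma on log2(FPKM + 1), Benjamini-Hochberg adjustment, 0.05), 46 antisense RNAs were higher in RIP, 12 were lower and 94 did not pass. That is 30.3% higher and 7.89% lower, against 15.4% higher and 24.3% lower among all genes tested. Their median log2 fold change was 0.86, against -0.10 over all genes tested. Among protein-coding genes the shares were 16.8% and 19.8%, with a median of 0.12. In 93 of the 152 both RIP libraries lay above both inputs, and in 27 both lay below, compared with 35.7% and 40.1% of all genes tested. Fold changes are differences of log2(FPKM + 1), a scale on which RNAs with low values change less than they do in FPKM. FPKM values are shares of a library, so a rise of an RNA in RIP and a fall of other RNAs there cannot be told apart, nor, in bulk RNA, can fewer expressing cells and less RNA per cell.

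**Figure D1:**
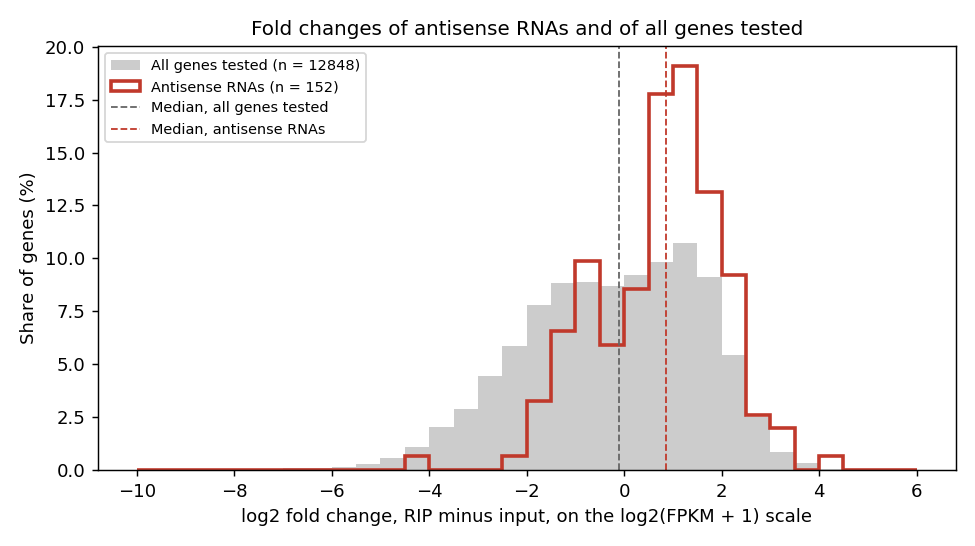
Share of genes (%, vertical axis) in bins of log2 fold change, RIP minus input, on the log2(FPKM + 1) scale (horizontal axis), for all 12848 genes tested (grey) and the 152 antisense RNAs (red outline), with dashed lines at the medians. The antisense RNAs have their median at 0.86 and all genes theirs at -0.10, and few antisense RNAs reach the far left of the range.

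The counts depended on the scaling and on single libraries, and the threshold that chose the members also bears on them. After quantile normalization 72 were higher and 8 lower, so that the higher share of the calls was 90.0% in place of 79.3%. Over all genes tested that share moved from 38.8% to 52.1%, with 24.0% of genes higher and 22.0% lower, and the median of all genes moved from -0.10 to 0.13. The distance of the antisense median from the median of all genes was 0.97 in the main fit and 1.08 after quantile normalization. Without either input no gene of the table passed. Without RIP 2 there were 78 antisense RNAs higher, beside 27.4% of all genes tested, and without RIP 1 there were 27 lower, beside 30.6% of all genes tested. The 66 members at 1 FPKM or more in all 4 libraries, which could not enter through 1 group alone, comprised 22 higher and 1 lower (LRRC75A-AS1), against 16.4% and 18.4% of the 9487 genes of the table at 1 or more everywhere. Another 23 were at the threshold in both RIP libraries only and had 13 higher (56.5%, against 57.7% of 475 such genes in the table). In both inputs only there were 14, with 8 lower (57.1%, against 82.6% of 951 such genes). The 49 with any other combination had 11 higher and 3 lower, and the share of all genes with such combinations was not computed. The RNAs at the threshold in 1 group only entered through the group in which they were high, and their counts support nothing. Among the called RNAs named below, FOXD2-AS1, PITPNA-AS1, WNT5A-AS1, TBC1D8-AS1 and TMEM254-AS1 entered through RIP in this way. PRRT3-AS1, ST3GAL6-AS1, RBM26-AS1, PXN-AS1, THUMPD3-AS1, PRMT5-AS1, RAB30-AS1 and PTPRG-AS1 entered through the inputs.

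Summed over the members, antisense RNA made up 1061 and 958 FPKM of the inputs and 1778 and 1045 of RIP 1 and RIP 2. Since the table summed to 700141, 690869, 301226 and 301483 FPKM, the share was 0.152% and 0.139% in the inputs, and 0.590% and 0.346% in RIP. One RNA, LRRC75A-AS1, carried more than any other in the inputs: without it the sums were 494.9, 438, 1744 and 1029 FPKM. The median member stood at 1.73 and 1.69 FPKM in the inputs and at 4.97 and 2.90 in RIP, so RIP 2 lay between the inputs and RIP 1. On the log scale the members correlated at a Pearson r of 0.904 between the inputs, 0.831 between the RIP libraries and 0.457 to 0.504 across groups (n = 152 RNAs of the same libraries, not independent replicates).

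The most abundant antisense RNAs differed between the groups. In input the 5 with the highest mean were LRRC75A-AS1, FGD5-AS1, THAP9-AS1, OIP5-AS1 and NCBP2-AS2, and in RIP they were FGD5-AS1, NCBP2-AS2, ADGRD1-AS1, AFAP1-AS1 and THAP9-AS1. FGD5-AS1, a widely expressed RNA on the minus strand of chr3:14920347-14948424 studied for binding microRNAs, was at 37.8 and 33.4 FPKM in the inputs and at 226.5 and 114 in RIP. Both RIP values lay above both inputs, with a log2 fold change of 2.15 (SE was 0.53 and adjusted p = 0.0252). Its host FGD5, a guanine nucleotide exchange factor found mainly in endothelium, was listed at 0 in all 4 libraries. NCBP2-AS2 (chr3:196942623-196943540, plus strand) lies head to head with NCBP2, the small subunit of the nuclear cap-binding complex, and is annotated as protein-coding. It was at 15.1 and 12.8 FPKM in the inputs and at 114 and 36.5 in RIP. The groups did not overlap (log2 fold change 2.14, SE 0.63 and adjusted p = 0.0391), but the fold change was 1.33 without RIP 1 and 2.95 without RIP 2. THAP9-AS1 stood at 19.6, 22.7, 68.9 and 49.4 FPKM in input 1, input 2, RIP 1 and RIP 2, an increase of 1.43 (SE 0.46 and adjusted p = 0.0488). OIP5-AS1, the human counterpart of the vertebrate RNA cyrano, was instead nearly level at 17.8, 14.2, 13.9 and 11.7 FPKM in the same order. Its RIP values lay just below the inputs, with a log2 fold change of -0.29 (SE was 0.46 and adjusted p = 0.624). The calls of FGD5-AS1, THAP9-AS1 and NCBP2-AS2 ended when genes under the threshold were added to the fit, and those of THAP9-AS1 and NCBP2-AS2 also ended with a pseudocount of 0.1.

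The 10 largest increases ran from ADGRD1-AS1 to HIF1A-AS2 and lay on chromosomes 1, 4, 7, 10, 12, 14 and 17. Those on chromosomes 1 and 10, where RIP 2 was raised in general, include FOXD2-AS1, ENTPD1-AS1 and FLG-AS1. ADGRD1-AS1 (ENSG00000256151, chr12:130990138-130993976, minus strand) lies within ADGRD1, an adhesion G protein-coupled receptor gene. It was at 0.900 and 6.70 FPKM in the inputs, which differ widely, and at 99.9 and 42.4 in RIP. Both RIP libraries were far above both inputs, with a log2 fold change of 4.11 (SE was 0.80 and adjusted p = 0.0142) that was 3.50 without RIP 1 and 4.72 without RIP 2. It was 3.10 without input 1 and 5.12 without input 2. Its host was at 1.05 and 0.441 FPKM in the inputs and at 7.52 and 1.97 in RIP, a difference that did not pass (adjusted p = 0.0728). AFAP1-AS1 (ENSG00000272620, chr4:7754090-7778928, plus strand), an RNA often studied in carcinomas for effects on cell movement, lies tail to tail with AFAP1, which encodes a protein that cross-links actin filaments. AFAP1-AS1 was at 8.23 and 6.68 FPKM in the inputs and at 98.1 and 40.04 in RIP. The groups were well apart, with a log2 fold change of 2.92 (SE was 0.57 and adjusted p = 0.0144; 2.29 without RIP 1). AFAP1 was also higher, at 8.11 and 10.8 FPKM in the inputs and 29.6 and 29.9 in RIP (log2 fold change 1.56, adjusted p = 0.0382), so that both RNAs of this locus stood higher in RIP.

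**Figure D2:**
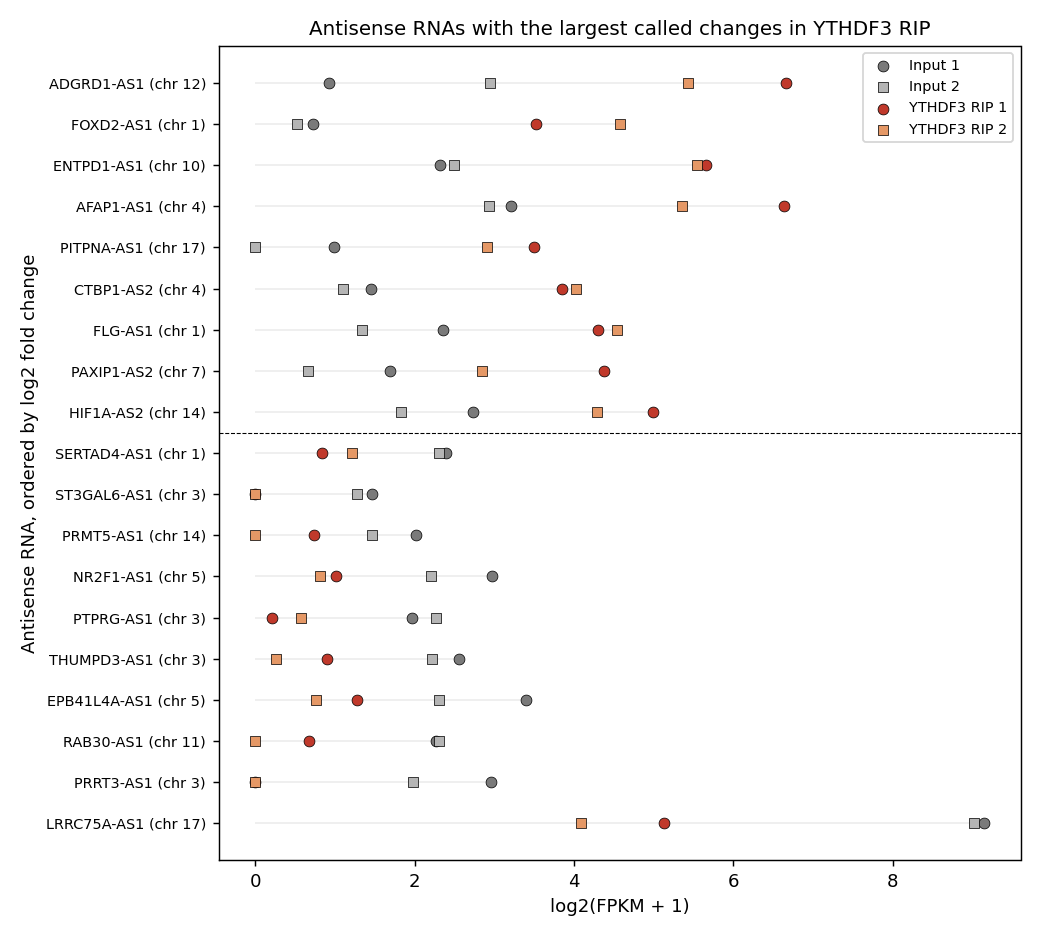
Level of each antisense RNA in each library as log2(FPKM + 1) (horizontal axis) for 9 of the 10 largest called increases (above the dashed line) and the 10 largest called decreases (below it), with circles for library 1 and squares for library 2 of each group, grey for input and red or orange for RIP. In all 19 rows the RIP and input symbols do not overlap, and LRRC75A-AS1 is far to the right of the others in input.

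ENTPD1-AS1 and FOXD2-AS1 lay on chromosomes 10 and 1, where RIP 2 had raised values for genes in general, as given further on. ENTPD1-AS1 (ENSG00000226688, chr10:95753206-96090238, minus strand) shares exonic bases with ENTPD1, the ectonucleotidase CD39. It was at 3.98 and 4.62 FPKM in the inputs and at 49.7 and 45.5 in RIP, with the libraries of each group close together (log2 fold change 3.20, SE 0.45 and adjusted p = 0.00890; 3.26 without RIP 2). FOXD2-AS1 (ENSG00000237424, chr1:47432133-47434641, minus strand) starts 1376 bases from FOXD2, a forkhead transcription factor gene, and runs the other way. It was at 0.647 and 0.436 FPKM in the inputs and at 10.5 and 22.9 in RIP. The log2 fold change was 3.43 (SE 0.54 and adjusted p = 0.0100), and 2.90 without RIP 2. FOXD2-AS1 is one of the RNAs at the threshold in RIP only, and the part of the chromosome shift of RIP 2 in its level was not tested. FOXD2 was also higher, at 0.0696 and 0.0878 FPKM in the inputs and 1.19 and 2.30 in RIP (adjusted p = 0.0244).

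The other large increases described here lay beside genes of unlike functions. PITPNA-AS1 was at 0.976 and 0 FPKM in the inputs and at 10.3 and 6.51 in RIP (adjusted p = 0.0138), and it shares 69.9% of its exonic bases with PITPNA, a phosphatidylinositol transfer protein gene, the highest share of any member. CTBP1-AS2, which begins inside the gene of the corepressor CTBP1, was at 1.74 and 1.15 FPKM in the inputs and at 13.5 and 15.3 in RIP (adjusted p = 0.0123). FLG-AS1 and its host filaggrin, the epidermal barrier protein, were both higher in RIP. FLG-AS1 went from 4.13 and 1.53 FPKM to 18.8 and 22.4 (log2 fold change 2.58, adjusted p = 0.0176). FLG went from 2.62 and 1.28 to 20.4 and 15.1 (2.69, adjusted p = 0.0141). This pair lies on chromosome 1, where RIP 2 was raised in general. Without RIP 2 the log2 fold changes of FLG-AS1 and FLG were 2.46 and 2.90. PAXIP1-AS2 was at 2.23 and 0.580 FPKM in the inputs and at 19.7 and 6.18 in RIP (log2 fold change 2.43, SE 0.69 and adjusted p = 0.0351). Its call ended without RIP 1, where the fold change was 1.67, with a pseudocount of 0.1, and with genes under the threshold in the fit. HIF1A-AS2, which lies tail to tail with the gene of the hypoxia factor HIF1A, was at 5.64 and 2.56 FPKM in the inputs and at 30.9 and 18.5 in RIP (log2 fold change 2.36, SE 0.56 and adjusted p = 0.0226), while HIF1A itself was at 38.2, 41.8, 8.18 and 27.1 and did not pass (adjusted p = 0.125). A pair of RNAs were listed at 0 in both inputs and are named for that, after their values were seen: WNT5A-AS1, at 3.11 and 2.11 FPKM in RIP (adjusted p = 0.0115), and TBC1D8-AS1, at 1.71 and 1.30 (adjusted p = 0.0165).

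Decreases were fewer, and the largest fitted one was that of LRRC75A-AS1, although with a pseudocount of 0.1 that of PRRT3-AS1, which is at 0 in RIP, was larger. LRRC75A-AS1 (ENSG00000175061, chr17:16438822-16478678, plus strand), also known as SNHG29 and a host of snoRNAs, was at 566 and 519.8 FPKM in the inputs and at 34.1 and 16.02 in RIP. The inputs were close and the RIP libraries less so, but the groups were far apart. The log2 fold change was -4.47 (SE was 0.56 and adjusted p = 0.00873 by limma). It was -3.95 without RIP 2 and -5.00 without RIP 1. EPB41L4A-AS1 (chr5:112160526-112164276, plus strand), also a snoRNA host, was at 9.50 and 3.94 FPKM in the inputs and at 1.43 and 0.704 in RIP. It was lower in RIP by limma (log2 fold change -1.82, SE 0.53 and adjusted p = 0.0385), and the call ended without RIP 2, with a pseudocount of 0.1 and with genes under the threshold in the fit. Among the decreases, PRRT3-AS1, ST3GAL6-AS1 and RBM26-AS1 had 0 in RIP 1 and RIP 2, and no fold is given for them. PRRT3-AS1 was at 6.79 and 2.95 FPKM in the inputs (adjusted p = 0.0117) and ST3GAL6-AS1, opposite a sialyltransferase gene, at 1.75 and 1.43 (adjusted p = 0.0150). RBM26-AS1, at 1.15 and 1.19 in the inputs (adjusted p = 0.0205), and PXN-AS1, at 1.20, 1.99, 0.1001 and 0 in input 1, input 2, RIP 1 and RIP 2 (adjusted p = 0.0215), complete the 12 and are named after their values were seen.

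The other decreases lay opposite genes of varied function. THUMPD3-AS1 was at 4.89 and 3.65 FPKM in the inputs and at 0.875 and 0.198 in RIP (log2 fold change -1.80, SE 0.42 and adjusted p = 0.0211), while THUMPD3, a tRNA methyltransferase gene within it, was at 19.01, 14.2, 34.5 and 29.7 (adjusted p = 0.143). PRMT5-AS1 was at 3.04 and 1.77 FPKM in the inputs and at 0.664 and 0 in RIP (log2 fold change -1.38, SE 0.40 and adjusted p = 0.0382). Its host PRMT5, an arginine methyltransferase gene, was lower too, from 82.1 and 97.9 FPKM to 25.1 and 27.8 (-1.73, adjusted p = 0.0284), the 1 pair of the 132 tested in which both were called lower. The call of PRMT5-AS1 ended without RIP 2, after quantile normalization, with a pseudocount of 0.1 and with genes under the threshold in the fit, and that of THUMPD3-AS1 under the last of these.

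Among 21 much studied antisense RNAs listed for this description, 15 were members, of which 4 were higher in RIP (26.7%, against 15.4% of all genes tested), 3 lower (20.0%, against 24.3%) and 8 did not pass, with a median log2 fold change of 1.12. The 4 were FGD5-AS1, HIF1A-AS2, TMPO-AS1 and ZEB1-AS1. ZEB1-AS1 lies head to head with ZEB1, a transcription factor gene of epithelial-mesenchymal transition. ZEB1-AS1 was at 1.14 and 0.868 FPKM in the inputs and at 4.83 and 4.37 in RIP (log2 fold change 1.48, SE 0.40 and adjusted p = 0.0310). It lies on chromosome 10, where RIP 2 was raised in general, and its log2 fold change was 1.54 without RIP 2. TMPO-AS1 was at 0.611 and 1.02 in the inputs and at 8.04 and 2.96 in RIP (log2 fold change 1.73, SE 0.52 and adjusted p = 0.0411). Both calls ended with a pseudocount of 0.1 and with genes under the threshold in the fit. The 3 lower were LRRC75A-AS1, EPB41L4A-AS1 and PTPRG-AS1. Of those that did not pass, MCM3AP-AS1 was at 2.35, 2.84, 10.1 and 6.39 FPKM in input 1, input 2, RIP 1 and RIP 2 (adjusted p = 0.0697) and TTN-AS1 at 0.545, 1.03, 10.4 and 2.41 (adjusted p = 0.0610). In these and in SBF2-AS1 (log2 fold change 1.12, adjusted p = 0.103) both RIP values lay above both inputs, and each passed after quantile normalization. GABPB1-AS1 was near level at 2.03, 2.22, 1.17 and 2.20 FPKM, and its log2 fold change of -0.24 turned to 0.10 after quantile normalization. Of the 6 that were not members, GATA3-AS1, FOXP4-AS1, CDKN2B-AS1 and HOXA-AS3 were listed at 0 in every library, EGFR-AS1 was at 0.607 FPKM in input 1 only, and HOXA-AS2 was at 0.213 in input 2 and 0.232 in RIP 1.

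The host gene was found in the table for 149 of the 152, and it was usually the more abundant of the pair on the FPKM scale, which is per length. The host stood above its antisense RNA in 107 and 110 of 149 pairs in the inputs and in 88 and 99 in RIP. Exonic bases on opposite strands were shared in 100 pairs, with a median of 11.3% of the antisense exon length (range 0.152% to 69.9%); 30 pairs were divergent, starting within 2000 bases of each other without overlap; 19 overlapped without shared exonic bases. Of the 100, 32 antisense RNAs were higher and 11 lower in RIP. Of the 30 divergent, 8 were higher and 1 lower, and of the 19, 6 were higher. By orientation, 14 of 49 head to head and 14 of 36 tail to tail RNAs were higher in RIP, as were 6 of 20 that lie within the host and 4 of 14 that contain it. The higher share ran from 26.7% to 38.9% across these arrangements. It was 30.3% over all members, with 7.89% lower. Among all genes tested 15.4% were higher and 24.3% lower. Differences between arrangements were not tested. Hosts at the threshold numbered 130, of which 32 were higher and 17 lower in RIP (24.6% and 13.1%), with a median log2 fold change of 0.76, between the medians of the antisense RNAs and of all genes. Among the hosts called higher, IQCH, NUTM2A, NUTM2B, PRKCZ, FOXD2, LRRC75A and ENTPD1 were at the threshold in RIP only. Among those called lower, SLC25A21 was at it in the inputs only. These hosts entered through the group in which they were high, and their calls support nothing.

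Antisense RNA and host showed little relation over the pairs as a whole. Over the 132 pairs in which both were tested, the log2 fold changes of antisense RNA and host had a Pearson r of -0.02 and a Spearman rho of -0.05, as a description over RNAs that share the same 4 libraries. By arrangement r was 0.15 and rho 0.07 in the 29 divergent pairs, -0.01 and -0.02 in the 87 with shared exonic bases, and -0.36 and -0.59 in the 16 that overlap without them. Both were higher in RIP in 9 pairs, among them AFAP1, ENTPD1, FLG, FOXD2 and PAXIP1 described above, and both were lower in 1. The antisense RNA alone was called higher in 30 pairs and lower in 4, and the host alone higher in 19 and lower in 13. In 3 pairs the antisense RNA was higher and the host lower, and in 5 the reverse. Of these, RAB30-AS1 and PTPRG-AS1 were at the threshold in the inputs only, and TMEM254-AS1 in RIP only. The hosts LRRC75A, ENTPD1, FOXD2, IQCH, NUTM2A, NUTM2B and PRKCZ were likewise at the threshold in RIP only, and SLC25A21 in the inputs only. Genes of this kind entered through the group in which they were high, so their calls in these pairs support nothing. The antisense minus host difference in log2 fold change was positive in 79 pairs and negative in 53, with a median of 0.39. The medians were 1.32 in 29 divergent pairs, 0.35 in 87 with shared exonic bases and -0.43 in 16 that overlap without them, values given with no test.

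**Figure D3:**
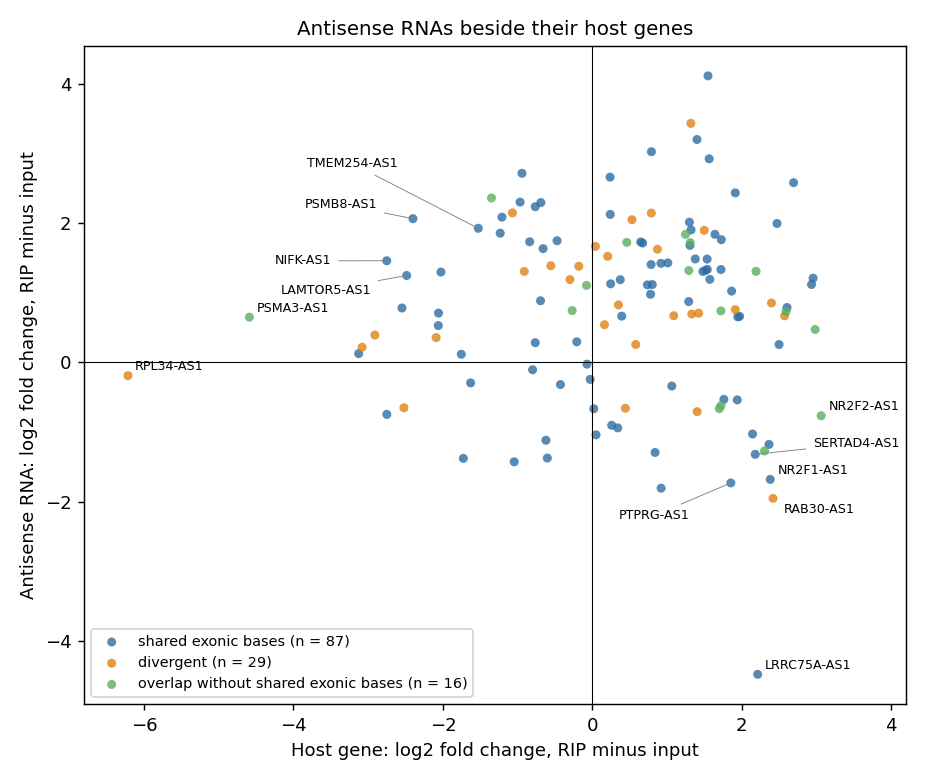
Log2 fold change, RIP minus input, on the log2(FPKM + 1) scale, of each antisense RNA (vertical axis) against that of its host gene (horizontal axis) for the 132 pairs tested, coloured by their arrangement in the genome. The points form no line (Pearson r = -0.02), and the labelled pairs are those called in opposite directions or with the largest differences.

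LRRC75A had the widest gap of the 5 pairs with a lower antisense RNA and a higher host. LRRC75A, a gene of a leucine-rich repeat protein, was at 0.262 and 0.0722 FPKM in the inputs and at 4.62 and 4.17 in RIP (log2 fold change 2.21, adjusted p = 0.0101), against the fall of LRRC75A-AS1 given above, a difference of -6.69. RAB30-AS1 (chr11:83072066-83106719, plus strand) was at 3.82 and 3.97 FPKM in the inputs and at 0.604 and 0 in RIP (log2 fold change -1.95, SE 0.39 and adjusted p = 0.0152). RAB30, a small GTPase gene of the Golgi apparatus that starts 143 bases away, went from 2.16 and 2.08 FPKM to 22.4 and 10.9 (2.42, adjusted p = 0.0197). In the inputs the antisense RNA of this pair stood above its host, and in RIP it stood far below.

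Nuclear receptor and phosphatase genes were also among these pairs. NR2F1-AS1 (chr5:93409359-93585648, minus strand) was at 6.86 and 3.61 FPKM in the inputs and at 1.02 and 0.752 in RIP (log2 fold change -1.68, SE 0.45 and adjusted p = 0.0315). NR2F1, an orphan nuclear receptor gene of the COUP-TF family, was at 1.31 and 1.43 in the inputs and at 20.6 and 6.03 in RIP (2.38, adjusted p = 0.0315). PTPRG-AS1 was at 2.92 and 3.80 FPKM in the inputs and at 0.153 and 0.489 in RIP (log2 fold change -1.73, SE 0.36 and adjusted p = 0.0166), whereas PTPRG, a receptor tyrosine phosphatase gene, went from 21.2 and 11.4 to 82.4 and 42.1 (1.85, adjusted p = 0.0418). The order reversed between groups for NR2F1 but not for PTPRG, which stood above its antisense RNA in all 4 libraries. SERTAD4-AS1 was at 4.26 and 3.94 FPKM in the inputs and at 0.791 and 1.33 in RIP (log2 fold change -1.32, SE 0.40 and adjusted p = 0.0428), and SERTAD4 went from 3.74 and 3.39 to 11.3 and 33.6 (2.18, adjusted p = 0.0368). This pair lies on chromosome 1; the call of SERTAD4-AS1 ended without RIP 1, after quantile normalization, with a pseudocount of 0.1 and with genes under the threshold in the fit, and that of NR2F1-AS1 under the last of these.

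**Figure D4:**
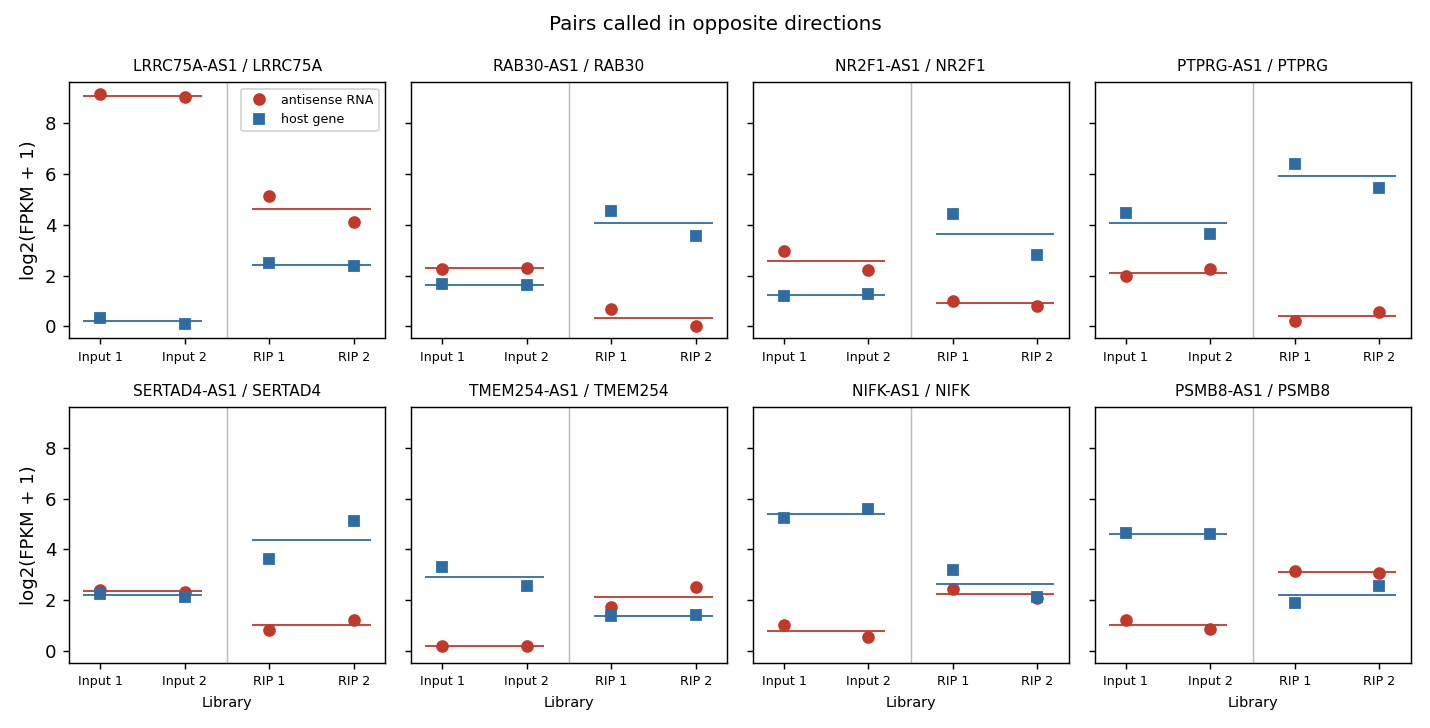
Level as log2(FPKM + 1) (vertical axis) in each of the 4 libraries (horizontal axis) of the antisense RNA (red circles) and the host gene (blue squares) for the 8 pairs called in opposite directions, with lines at the group means. In the first 5 panels the antisense RNA is lower and the host higher in RIP, and in TMEM254, NIFK and PSMB8 the reverse. RAB30-AS1, PTPRG-AS1, TMEM254-AS1 and LRRC75A were at the threshold in 1 group only.

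In the 3 pairs of the opposite kind the antisense RNA was higher and the host lower. PSMB8-AS1 (chr6:32844086-32846495, plus strand) was at 1.32 and 0.829 FPKM in the inputs and at 7.86 and 7.35 in RIP (log2 fold change 2.06, SE 0.44 and adjusted p = 0.0173). PSMB8, a catalytic subunit of the immunoproteasome, went from 23.7 and 23.4 FPKM to 2.67 and 4.89 (-2.40, adjusted p = 0.0167). The antisense RNA was thus below its host in both inputs and above it in both RIP libraries. NIFK-AS1 went from 1.03 and 0.483 FPKM to 4.43 and 3.20 (log2 fold change 1.46, SE 0.40 and adjusted p = 0.0332), and NIFK, a nucleolar protein that binds Ki-67, from 36.4 and 47.1 to 8.15 and 3.34 (-2.75, adjusted p = 0.0150). The call of NIFK-AS1 ended with a pseudocount of 0.1 and with genes under the threshold in the fit. TMEM254-AS1, on chromosome 10, went from 0.152 and 0.141 FPKM to 2.30 and 4.74 (log2 fold change 1.93, SE 0.39 and adjusted p = 0.0159), and TMEM254 from 8.80 and 4.83 to 1.61 and 1.64 (-1.53, adjusted p = 0.0471).

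Of the 5 widest differences in the positive direction, PSMB8 and NIFK are given above, and in the other 3 the host was lower in RIP beside an antisense RNA that did not pass. RPL34, a protein of the large ribosomal subunit, was at 290.0 and 673 FPKM in the inputs and at 24.99 and 0.368 in RIP (log2 fold change -6.21, adjusted p = 0.0170), with RIP 2 far below RIP 1. RPL34-AS1, which starts 106 bases away and runs the other way, was at 1.10, 0.691, 1.17 and 0.258 FPKM in input 1, input 2, RIP 1 and RIP 2. Its groups overlapped, and its log2 fold change of -0.19 (adjusted p = 0.696) turned to 0.35 after quantile normalization. PSMA3, an alpha subunit of the proteasome core, was at 143.6 and 173 FPKM in the inputs and at 8.08 and 3.78 in RIP (-4.59, adjusted p = 0.00873), and PSMA3-AS1 at 9.91, 9.89, 20.5 and 12.6 (0.65, adjusted p = 0.312). In RIP the antisense RNA was therefore the higher of the pair. LAMTOR5, a subunit of the Ragulator complex, was at 48.7, 63.4, 3.87 and 20.0 FPKM (-2.48, adjusted p = 0.0402), and LAMTOR5-AS1 at 0.971, 0.502, 1.67 and 5.24 (1.25, adjusted p = 0.0880). This pair lies on chromosome 1, where RIP 2 was raised in general. LAMTOR5-AS1 was at 0.63 without RIP 2 and at 1.86 without RIP 1, where it passed, and LAMTOR5 was at -3.54 and -1.43. MAPKAPK5, a stress-activated kinase gene, was likewise lower (-2.06, adjusted p = 0.0287) beside MAPKAPK5-AS1, at 12.7, 9.63, 26.0 and 13.4 FPKM (0.71, adjusted p = 0.304). In the negative direction NR2F2, the sister receptor gene of NR2F1, went from 18.1 and 22.7 FPKM to 287.6 and 108.5 (3.06, adjusted p = 0.0146), and NR2F2-AS1 was at 1.48, 1.09, 0.803 and 0 (-0.76, adjusted p = 0.141).

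The 2 divergent pairs with the widest differences of either sign, RAB30 and RPL34, have their starts so close that the whole stretch between them can be shown. The stretches are from the RefSeq promoter table (GRCh38.p14), at chr11:83071924-83072065 on the minus strand and chr4:108620461-108620565 on the plus strand, each written along the strand of the host. Capitals mark ATTGG, the CCAAT box read on the other strand.
RAB30: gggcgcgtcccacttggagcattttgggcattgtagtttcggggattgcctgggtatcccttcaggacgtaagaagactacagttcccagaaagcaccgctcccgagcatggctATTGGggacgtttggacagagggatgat
RPL34: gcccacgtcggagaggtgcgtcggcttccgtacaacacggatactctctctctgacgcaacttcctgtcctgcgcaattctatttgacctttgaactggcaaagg
The RAB30 stretch of 142 bases held 1 match to CCAAT or ATTGG, which 22.8% of the 35116 promoters in the table hold in the same length, and none to CCGGAA or TTCCGG, which 10.8% hold. The RPL34 stretch of 105 bases held neither, against 18.7% and 9.07% of promoters. The RAB30 stretch lies between RAB30, called higher in RIP, and RAB30-AS1, which was at the threshold in the inputs only, so that its lower call supports nothing. The RPL34 stretch lies between RPL34, called lower, and RPL34-AS1, which did not pass. A match is a description of letters and not of a bound site.

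Where a host is abundant and shares exonic bases with its antisense RNA, the use of strand in counting matters, and it is not given in the sources used here, although the labels name a stranded library kit. Reads of the 2 partners could not be told apart if strand was ignored. A case picked after its values were seen was VIM-AS1 on chromosome 10, which shares 32.2% of its exonic bases with vimentin. VIM was at 727 and 1322 FPKM in the inputs and at 294 and 1258 in RIP, and VIM-AS1 at 2.51 and 2.53 in the inputs and 14.3 and 18.5 in RIP (log2 fold change 2.30, adjusted p = 0.0168). The antisense RNA thus stood far below its host in every library. How host reads spread over their exons cannot be read from these values, and the part of host reads in the antisense values was not tested for this or any other pair.

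RIP 2 differed from RIP 1 by chromosome, and the antisense RNAs followed. Chromosome 1 held 9.20% and 9.48% of the length-weighted signal of the inputs, 10.6% of RIP 1 and 35.9% of RIP 2, and chromosome 10 held 3.56%, 3.74%, 3.99% and 6.89%. Of 26 members on these chromosomes RIP 2 stood above RIP 1 in 23, and of 126 elsewhere in 9. The median of log2 RIP 2 minus RIP 1 was 0.58 on chromosomes 1 and 10 and -0.82 elsewhere, with 1.31 and -0.54 for all genes tested there. On the 2 chromosomes 11 members were called higher and 1 lower, and outside them 35 of 126 were higher and 11 lower. The shares of all genes called on and off these chromosomes in the main fit were not computed. The counts are therefore not read as a result about the members. Fitted on genes outside chromosomes 1 and 10 alone, 42 of the 126 were higher and 12 lower, beside 16.6% and 28.5% of the 10937 genes in that fit.

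The density of GGACT differed little between antisense RNAs that were higher, lower or not passed in RIP. In the longest annotated transcript, 121 of 152 members (79.6%) held at least 1 copy on the transcript strand, against 86.6% of all genes tested. Those with a copy were 38 of the 46 higher in RIP, 73 of the 94 that did not pass and 10 of the 12 lower. The median density was 0.91 copies per kilobase in those higher in RIP, 0.83 in those that did not pass and 0.80 in those lower, and 0.85 over all members. Of the 46 higher, 13 were at the threshold in both RIP libraries only, and of the 12 lower, 8 in both inputs only. The threshold thus partly set these groups, and their densities are a description with no test. Among all genes tested the medians were 1.02, 0.90 and 0.65 in the same order. Spearman's rho between density and log2 fold change was 0.00487 over the members and 0.19 over 12845 genes, and that between transcript length and log2 fold change was 0.18 and 0.40, as descriptions across RNAs of the same libraries. FGD5-AS1, the most abundant antisense RNA in RIP, held no copy in a transcript of 3792 bases, nor did HIF1A-AS2 or NIFK-AS1, all 3 of them higher in RIP. The absence says only that these letters are not in the annotated transcript.

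At the threshold itself, the members just inside were WEE2-AS1 (0.972, 0.121, 1.03 and 1.17 FPKM in input 1, input 2, RIP 1 and RIP 2), MAN1B1-AS1 (0.539, 0.219, 1.90 and 1.03) and CCDC18-AS1 (1.03, 0.993, 0.523 and 3.01). Just outside were SH3RF3-AS1 (0.505, 0.677, 2.79 and 1.00), EXOC3-AS1 (0.702, 0.678, 2.39 and 0.998) and NDUFB2-AS1 (0, 0, 0.992 and 1.23). The values on either side are much alike.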

How the data were processed

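RNA of 2 input and 2 YTHDF3 RIP libraries was analysed, grouped by sample title. Per the submitters' processing notes, HISAT2 and the GRCh38 (hg38) build were used. The authors deposited 1 table of values per gene, taken here as FPKM from the values themselves, since no header names the unit. For the counting program, its use of strand, the annotation and any filter, nothing is given in the sources used here. Of 36217 rows, 14 repeated identifiers were dropped. Of the 36203 left, 36125 were found in GENCODE 29, which gave classes, positions and transcripts. Only 32.3% to 33.3% of low values came out as whole reads within 0.03, so reads were not recovered, no count test was run and no counting interval is given.

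The 12848 genes that reached 1 FPKM in 2 or more libraries were fitted with limma 3.58.1 in R 4.3.3 on log2(FPKM + 1), with a mean-variance trend without a block; two-sided p-values over all these genes received the Benjamini-Hochberg adjustment, with a threshold of 0.05. On simulated data with 12687 genes, 200 of them changed, changes of 4-fold were found in 57% of cases and of 8-fold in 99%, and 2 unchanged genes were called. The simulation drew independent errors with 1 spread per group for all genes and without the chromosome shift of RIP 2. In the data 1981 genes were called higher and 3126 lower, far more than were changed there. These figures therefore give no error rate for the real libraries. Antisense RNA and host were joined by Ensembl identifier after matching the symbol before -AS. Members and lists were chosen with earlier results of these data known. RNAs are named for being among the 10 largest called increases or decreases, the 5 highest means in either group, a list of 21 much studied RNAs, the 3 nearest to the threshold on each side, the 5 widest pair differences of each sign, or pairs called in opposite directions, with exceptions stated; some of the RNAs this rule takes in are not reported here. Alternatives were quantile normalization, centring on protein-coding genes, a pseudocount of 0.1, no filter, leaving out chromosomes 1 and 10, a replicate block and leaving out each library. Motifs were searched in GENCODE transcripts on the transcript strand and in RefSeq promoters (GRCh38.p14) on both strands, with 104 members and 133 hosts found in the promoter table.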

Additional observations from a re-analysis of the deposited data

How the results depend on the processing

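Antisense RNAs called higher numbered 46, and 72 after quantile normalization, 27 with a pseudocount of 0.1, 21 with no filter on low values and 0 to 78 when 1 library was left out. Those called lower numbered 12, 7 with no filter and 0 to 27 with 1 library left out. Hosts called higher numbered 32, 52 after quantile normalization, 14 with no filter and 0 to 52 with 1 library left out. Hosts called lower numbered 17, 10 with no filter and 0 to 22 with 1 library left out. With the replicate block, the title suffix shared by 1 input and 1 RIP library, 52 antisense RNAs were higher and 12 lower. Under it 41 hosts were higher and 19 lower. The shares of all genes fitted moved as well, from 15.4% higher and 24.3% lower in the main fit. They were 19.3% and 27% under the block, and 24% and 22% after quantile normalization. The smaller pseudocount gave 11.6% and 20.4%, and the unfiltered fit 3.88% and 11.5%. Of the members, 30.3% were higher in the main fit, and 34.2%, 47.4%, 17.8% and 13.8% in the same order. The labels do not say what the suffix means, and deviations of libraries that share it correlated at 0.21 over 12848 genes. The zeros came without input 1 or input 2. At an unadjusted p under 0.05 limma then called 21 antisense RNAs higher and 12 lower without input 1, and 17 and 14 without input 2, beside 737 and 2299, and 608 and 2257, of the 12848 genes tested. The median antisense minus host difference stayed between 0.26 and 0.57. The sign changed in 8 members after quantile normalization, 13 without RIP 1 and 11 without RIP 2. Among the named RNAs it reversed for GABPB1-AS1 (0.10 after quantile normalization, -0.52 to 0.04 leaving out a library), RPL34-AS1 (0.35, -0.58 to 0.20) and CCDC18-AS1 (-0.40 to 0.99 leaving out a library). Both a pseudocount of 0.1 and no filter left 28 calls, 21 higher and 7 lower. The cause of these changes was not tested. Depth is unknown beyond the estimate given, and the number of libraries limits precision.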

Other observations

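Long noncoding RNAs with LINC symbols, which are named without a host gene, had shares of calls near those of the antisense RNAs. Of 91 intergenic RNAs with LINC symbols at the threshold, 28 were higher in RIP and 7 lower, which is 30.8% and 7.69%, with a median log2 fold change of 0.70. Of 3 RNAs named after a locus with the endings -IT, -OT or -DT, 1 was higher, which is too few to compare. The difference between these lists and the antisense RNAs was not tested.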
